A study of Mus musculus with 12 samples.

Results

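The mitochondrial ribosomal proteins are the nucleus-encoded protein subunits of the ribosome inside mitochondria. Their mRNAs were chosen by name, as the rows whose symbol is Mrpl (large subunit) or Mrps (small subunit) followed by a digit, with a mean of at least 1 FPKM, a read density per transcript length and library size, in the table. Of 75 such rows, 73 passed in each of the 2 deposited tables, 45 named Mrpl and 28 named Mrps. The tables hold 23174 rows, of which 10245 passed the same level in the ex vivo table and 10741 in the tumour table. Mrpl23 and Mrps36 did not pass in either table. Mrpl23 was listed at 0 in all AMD3100 samples and at up to 0.368 FPKM in vehicle samples, and at up to 0.845 FPKM in KO and 2.14 FPKM in WT tumours. Mrps36 was at 0.910 to 1.10 FPKM in AMD3100 samples and 0 to 1.82 FPKM in vehicle samples, and was listed at 0 in every tumour. One member stands on a joined row, Mrps6,Slc5a3, whose 2 genes cannot be told apart.

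Poly-A RNA was sequenced from T-ALL, an acute leukaemia of T cell precursors, of C57BL/6 mice. All samples carried Notch1-deltaE+, an activated Notch1. Ex vivo, 3 samples treated with AMD3100, a CXCR4 antagonist, were compared with 3 vehicle samples. CXCR4 is a receptor for the chemokine CXCL12. In the primary tumours, 3 Cxcr4-/- (KO) samples, numbered 5, 7 and 8, were compared with 3 Cxcr4+/+ (WT) samples, numbered 1, 2 and 4. The labels describe spleen leukaemia cells kept on OP9 stromal cells (arrested with 7.5 ng/ml mitomycin C) with 5 ng/ml IL-7, and give this culture for every sample. The sources used here do not give the dose and time of AMD3100, the age of the animals, or the promoter or Cre behind the alleles. Nothing states that the samples of a group are separate animals or cultures, so each p-value reflects sample-to-sample spread that may be technical.

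The mitochondrial ribosome translates the few mRNAs made from mitochondrial DNA, which encode core subunits of the respiratory chain and of ATP synthase. Its ribosomal RNAs come from mitochondrial DNA, while its proteins are made in the cytosol and imported. Some of these proteins have a counterpart in bacterial ribosomes, and others are found only in mitochondria. The symbols do not follow the structure throughout: the products of Mrps18a and Mrps30 sit in the large subunit, and that of Mrps36 belongs to the oxoglutarate dehydrogenase complex.

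Promoters are shown for Mrpl42, Mrpl49, Mrps24 and Mrps18b, whose falls under AMD3100 were among the 3 largest of their subunit. Mrpl41 and Mrps21 (log2 changes of -0.68 and -0.67) were also among these falls and are not shown. The promoter of Mrpl52, the member with the largest change in the other direction, is shown beside them. Sequences are from RefSeq, build GRCm38.p6, from 250 bases before to 50 bases after the annotated start: Mrpl42 chr10:95501900-95502199 (minus strand), Mrpl49 chr19:6057706-6058005 (minus strand), Mrps24 chr11:5707652-5707951 (minus strand), Mrps18b chr17:35916391-35916690 (minus strand) and Mrpl52 chr14:54426659-54426958 (plus strand). Capitals mark matches, on either strand, to the letters AAGATGGC (the YY1 motif), GCGCATGC (the NRF1 motif) and CCGGAAG (the ETS motif).
Mrpl42: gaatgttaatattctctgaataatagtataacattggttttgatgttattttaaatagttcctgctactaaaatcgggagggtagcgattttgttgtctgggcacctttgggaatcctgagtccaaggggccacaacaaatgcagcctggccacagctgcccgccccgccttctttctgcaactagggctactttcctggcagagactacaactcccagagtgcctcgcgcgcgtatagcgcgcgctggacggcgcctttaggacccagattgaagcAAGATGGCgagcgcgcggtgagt
Mrpl49: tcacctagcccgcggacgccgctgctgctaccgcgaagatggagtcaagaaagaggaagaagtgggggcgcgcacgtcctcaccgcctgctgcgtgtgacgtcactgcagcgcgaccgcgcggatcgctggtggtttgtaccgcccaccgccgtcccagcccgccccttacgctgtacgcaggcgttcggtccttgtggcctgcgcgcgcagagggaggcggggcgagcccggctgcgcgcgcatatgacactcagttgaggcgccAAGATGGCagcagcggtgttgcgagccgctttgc
Mrps24: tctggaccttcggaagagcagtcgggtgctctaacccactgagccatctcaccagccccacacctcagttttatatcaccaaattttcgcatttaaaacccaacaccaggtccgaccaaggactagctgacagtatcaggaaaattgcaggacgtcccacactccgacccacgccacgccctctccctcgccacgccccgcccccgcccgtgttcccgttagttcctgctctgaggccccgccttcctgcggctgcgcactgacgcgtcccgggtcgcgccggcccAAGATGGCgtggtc
Mrps18b: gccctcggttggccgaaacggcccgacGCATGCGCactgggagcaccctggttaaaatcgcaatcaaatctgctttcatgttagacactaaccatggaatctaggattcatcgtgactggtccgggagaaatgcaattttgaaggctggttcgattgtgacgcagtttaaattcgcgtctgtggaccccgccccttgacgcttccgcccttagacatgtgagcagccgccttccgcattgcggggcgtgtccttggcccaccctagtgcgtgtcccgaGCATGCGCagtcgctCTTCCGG
Mrpl52: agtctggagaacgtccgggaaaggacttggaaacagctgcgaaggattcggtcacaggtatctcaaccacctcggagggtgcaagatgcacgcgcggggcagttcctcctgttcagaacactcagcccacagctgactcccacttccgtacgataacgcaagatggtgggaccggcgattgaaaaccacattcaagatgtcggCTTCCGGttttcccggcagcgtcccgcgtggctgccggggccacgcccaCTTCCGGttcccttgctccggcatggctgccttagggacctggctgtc

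Mrpl42, Mrpl49 and Mrps24 each hold AAGATGGC after the annotated start. Of the falls not shown, Mrps21 holds CCGGAAG and Mrpl41 holds none of these motifs. Mrps18b holds GCGCATGC in 2 places and CCGGAAG in 1, and Mrpl52 holds CCGGAAG in 2. Of the 73 members, 63 matched a promoter by symbol, as did 7540 of the tested ex vivo rows. CCGGAAG was in 23 of the 63 (36.5%), against 23.0% of the matched tested genes and 9.93% of all 27025 genes with a promoter. AAGATGGC was in 12 (19.0%), against 6.05% and 3.19%, and GCGCATGC in 8 (12.7%), against 6.80% and 3.05%. The E-box CACGTG was in 5 (7.94%), against 12.5% and 8.09%, and TATAAA in 5 (7.94%), against 7.82% and 15.7%. Of the 24 matched members called lower in the paired fit given below, 10 held CCGGAAG, 7 AAGATGGC and 5 GCGCATGC. These are matches of letters in a window, not sites of binding. GCGCATGC was found in 7 of 39 Mrpl and 1 of 24 Mrps promoters, while CCGGAAG was in 12 Mrpl and 11 Mrps promoters and AAGATGGC in 6 of each.

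With AMD3100, mRNAs of both subunits were lower in the leukaemia cells, by about the same proportion. The 45 Mrpl mRNAs summed to 2203, 2257 and 2043 FPKM in AMD3100 samples 1, 2 and 3, against 2766, 2613 and 2719 FPKM in vehicle samples. The 28 Mrps mRNAs summed to 1157, 1092 and 1172 FPKM in AMD3100 samples, against 1489, 1321 and 1522 FPKM in vehicle samples. For both sums every AMD3100 sample was below every vehicle sample. The mean sums were 2168 ± 111 FPKM with AMD3100 and 2699 ± 78.4 FPKM with vehicle for Mrpl (SD, n = 3 each), and 1140.2 ± 42.9 FPKM with AMD3100 and 1444 ± 108 FPKM with vehicle for Mrps. The Mrpl sum over the Mrps sum was 1.91 ± 0.163 with AMD3100 and 1.87 ± 0.0971 with vehicle, a difference smaller than the spread between samples. In bulk samples, fewer cells of a type and less RNA per cell cannot be told apart.

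**Figure D1:**
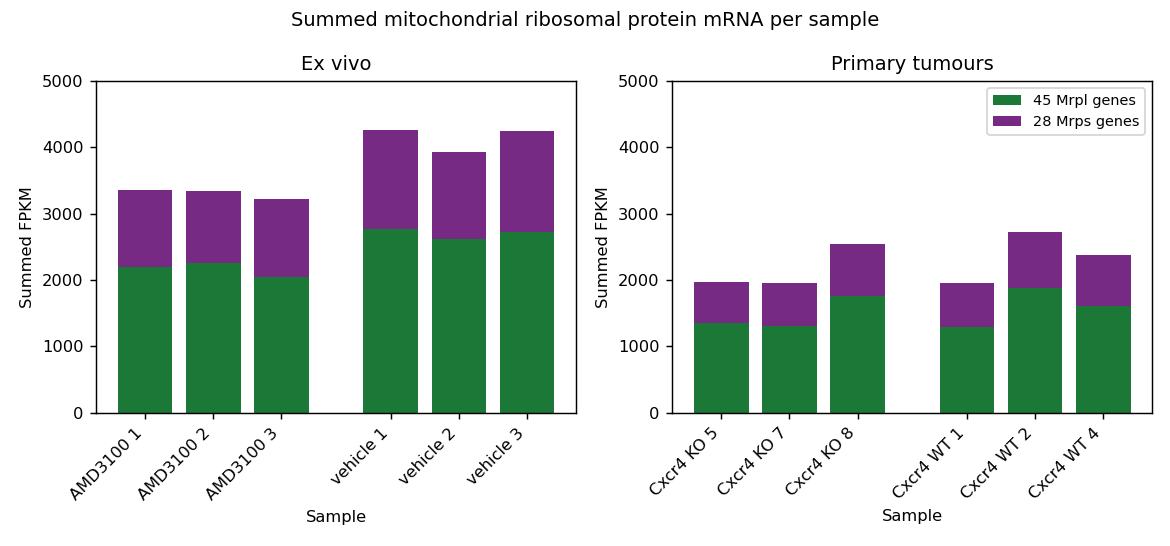
Summed FPKM of the Mrpl (green) and Mrps (purple) mRNAs, stacked, in each sample of the ex vivo experiment (left) and of the primary tumours (right). The AMD3100 samples all lie below the vehicle samples, while the KO and WT tumours overlap; the 2 tables were normalised apart, so heights are compared only within a panel.

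The median log2 change of FPKM + 1, AMD3100 minus vehicle, was -0.33 over the Mrpl and -0.30 over the Mrps mRNAs, against 0.00 over all tested genes. In 71 of 73 members the change was below 0, against 49.7% of all tested genes. Without pairing, limma called 0 of the 73 members at an adjusted p under 0.05, with 0.0781% of tested genes called lower and 0.0488% called higher. The smallest adjusted p of a member in that limma fit was 0.0544. At an unadjusted p under 0.05 it found 36 members lower and 0 higher, against 12% and 9.56% of tested genes. For 43 members (27 Mrpl and 16 Mrps) all AMD3100 samples were below all vehicle samples, against 15.8% of tested genes, and for 0 members all were above, against 13.1%.

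With same-numbered samples paired, limma called 28 of 73 members lower and 0 higher, where 9.92% of tested genes were called lower and 9.96% higher. The lower members were 19 of 45 Mrpl and 9 of 28 Mrps. The called changes ran from -1.08 to -0.30 for Mrpl and from -0.77 to -0.30 for Mrps. With a pair left out, calls fell over the whole table. Each of these 3 fits has equally few samples left, and which pairs carry the calls was not tested. Without the samples numbered 1 or those numbered 2, limma called 0 members, where 0.00976% and 0.0293% of tested genes were called lower. Without those numbered 3 it called 3 Mrpl and 3 Mrps, against 2.81% of tested genes. The change itself was seen in each pair. In pairs 1, 2 and 3, 67, 65 and 68 of 73 members were lower with AMD3100, with medians of -0.33, -0.25 and -0.38. Of all tested genes, 47.8%, 49.6% and 50.2% were lower in these pairs, with medians of 0.016, 0 and -0.0015. In 58 members all 3 pairs were lower, against 29.4% of tested genes, and in 1, Mrpl52, all 3 were higher, against 30.8%.

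**Figure D2:**
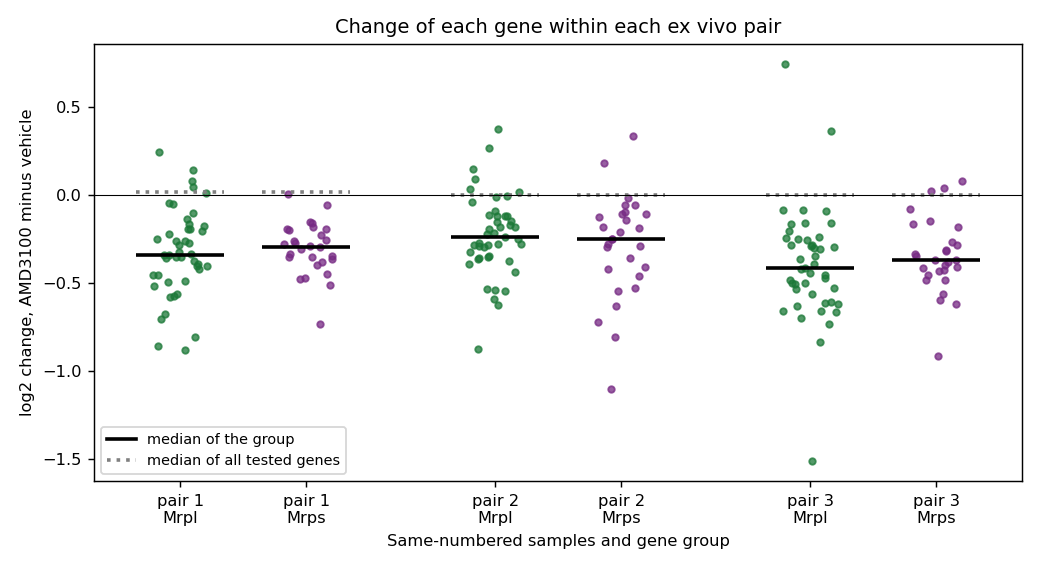
The log2 change of FPKM + 1, AMD3100 minus vehicle, of each Mrpl (green) and Mrps (purple) gene within each same-numbered pair of ex vivo samples. Black lines mark the group median and dotted lines the median of all tested genes; most points lie below 0 in each pair, with medians over all members of -0.33, -0.25 and -0.38.

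Among the large subunit mRNAs, Mrpl42, a protein found only in mitochondrial ribosomes, had the largest fall. It was at 72.9, 73.5 and 51.8 FPKM in AMD3100 samples 1, 2 and 3, against 133, 135 and 149.7 FPKM in vehicle samples. The groups were far apart, and AMD3100 sample 3 was the lowest. The paired change was -1.08 on the log2 scale (SE 0.15, limma adjusted p = 0.0199). Mrpl49, also found only in mitochondria, was at 21.2, 23.8 and 23.6 FPKM with AMD3100, against 39.7, 35 and 42.9 FPKM with vehicle. No AMD3100 sample reached the vehicle range, and the change was -0.75 (SE 0.09, limma adjusted p = 0.0197). Mrpl41, a further mitochondria-specific subunit, was lower in every pair, at 13.1, 16.4 and 11.4 FPKM with AMD3100 against 23.7, 25.2 and 18.1 FPKM with vehicle, and its paired change was -0.68 (SE 0.08, limma adjusted p = 0.0197).

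Among large subunit proteins with a bacterial counterpart the largest fall was that of Mrpl12. Mrpl12, the protein of the flexible stalk that recruits translation factors, was at 101, 105 and 89.9 FPKM with AMD3100, against 151, 142 and 139 FPKM with vehicle. The groups did not overlap and the change was -0.54 (SE 0.07, limma adjusted p = 0.0197). Mrpl20, at 113, 112 and 106 FPKM with AMD3100 against 156, 147 and 163 FPKM with vehicle, was as tight within each group and changed by -0.49 (SE 0.07, limma adjusted p = 0.0210). Mrpl33, the second most abundant of the Mrpl mRNAs, was at 133, 131 and 111 FPKM with AMD3100, against 168, 169 and 136 FPKM with vehicle. The number 3 sample was the lowest of both groups, and the paired change was -0.33 (SE 0.06, limma adjusted p = 0.0289). Mrpl11, Mrpl32 and Mrpl15 of this class were also called, at -0.53, -0.49 and -0.49.

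Not every large subunit mRNA was lower. Mrpl52, the most abundant member and specific to mitochondria, was at 202, 232 and 165 FPKM with AMD3100, against 183, 179 and 98.2 FPKM with vehicle. The groups overlapped, each AMD3100 sample was above its own vehicle sample, and the paired change of 0.42 (SE 0.13) was not called (limma adjusted p = 0.0746). Mrpl45, which in mammals anchors the ribosome to the inner membrane, was at 27.9, 19.7 and 26.4 FPKM with AMD3100, against 23.4, 21.1 and 20.3 FPKM with vehicle. Its samples overlapped and its change of 0.17 was not called. Mrpl3, which lies near the peptidyl transferase centre, was at 53.2, 51.8 and 50.9 FPKM with AMD3100, against 64.1, 51.2 and 67.2 FPKM with vehicle. Mrpl44, a subunit with a fold related to ribonucleases, was at 21.7, 23.3 and 20.9 FPKM with AMD3100, against 28.1, 22.8 and 25.0 FPKM with vehicle. For Mrpl3 the overlap came from vehicle sample 2 alone, and for Mrpl44 from AMD3100 sample 2 lying above vehicle sample 2. The changes of Mrpl3 and Mrpl44, -0.21 and -0.19, were not called (limma adjusted p = 0.172 and 0.218, paired).

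**Figure D3:**
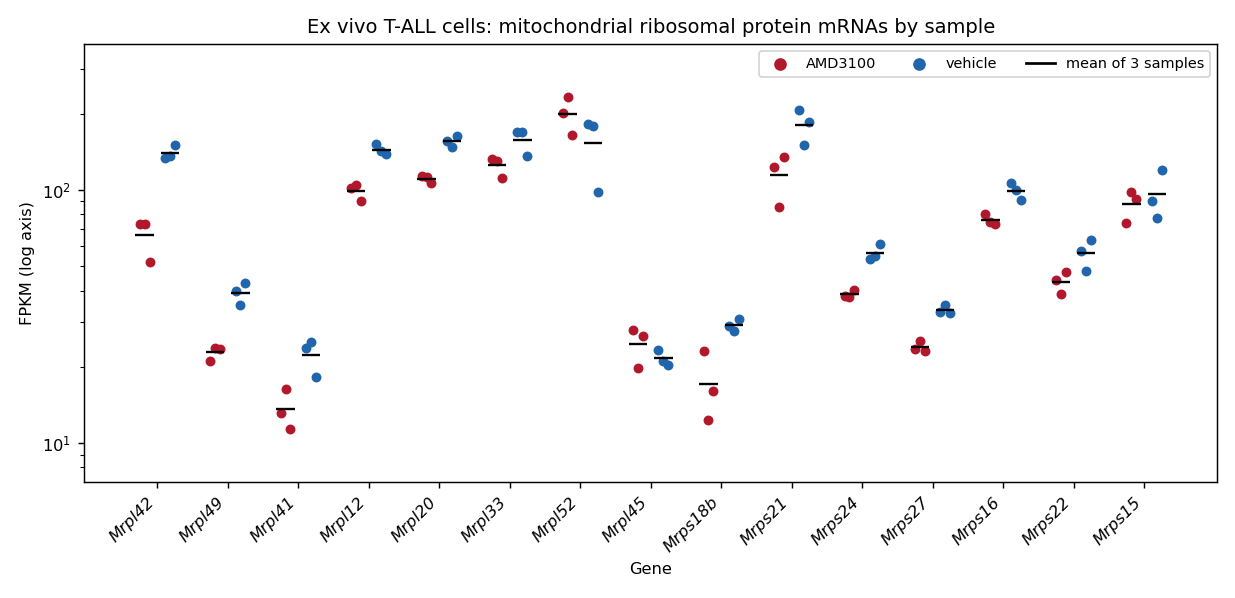
FPKM, on a log axis, of 15 members in each AMD3100 (red, left) and vehicle (blue, right) sample, with the mean of 3 samples as a black line. Mrpl42 stands farthest apart, at 51.8 to 73.5 FPKM with AMD3100 and 133 to 149.7 FPKM with vehicle, and Mrpl52 is the abundant member that is not lower.

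In the small subunit the leading genes were Mrps18b and Mrps21. Mrps18b, one of 3 relatives of the bacterial S18 protein family, was at 23.2, 12.3 and 16 FPKM with AMD3100, against 28.9, 27.6 and 31.0 FPKM with vehicle. All AMD3100 samples were lower, with a wide spread among them, and the paired change was -0.77 (SE 0.17, limma adjusted p = 0.0366). Its relative Mrps18a, whose product sits in the large subunit, was at 48.5, 40.8 and 44.8 FPKM with AMD3100, against 58.4, 49.7 and 58.2 FPKM with vehicle, a called change of -0.30 (limma adjusted p = 0.0361, paired). Mrps18c, the relative at the bacterial position, was at 32.1, 30.3 and 42.9 FPKM with AMD3100 against 46.3, 50.4 and 48.1 FPKM with vehicle, and its change of -0.46 was not called (limma adjusted p = 0.0538, paired). So all 3 relatives were lower without overlap, and 2 were called.

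Mrps21, the most abundant Mrps mRNA, was at 123, 85.6 and 134 FPKM with AMD3100, against 206, 150.4 and 185 FPKM with vehicle. Sample 2 was lowest in both groups, and the paired change was -0.67 (SE 0.09, limma adjusted p = 0.0199). Mrps24, whose bacterial counterpart lines the mRNA entry channel, was at 38.0, 37.7 and 40.1 FPKM with AMD3100, against 53.4, 54.8 and 61.1 FPKM with vehicle, a change of -0.53 (SE 0.07, limma adjusted p = 0.0197). Mrps27, which is specific to mitochondria, was at 23.5, 25.3 and 23.1 FPKM with AMD3100, against 33.0, 35.2 and 32.7 FPKM with vehicle, a change of -0.47 (SE 0.07, limma adjusted p = 0.0199). Both genes were tight within groups and did not overlap.

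Mrps16 and Mrps22, in which human mutations cause respiratory chain deficiency, were called with smaller changes. Mrps16 was at 80.4, 74.5 and 73.5 FPKM with AMD3100, against 106, 100 and 91.5 FPKM with vehicle (-0.38, SE 0.06, limma adjusted p = 0.0246, paired). Mrps22 was at 43.8, 38.7 and 47.3 FPKM with AMD3100, against 57.3, 47.6 and 63.3 FPKM with vehicle (-0.36, SE 0.07, limma adjusted p = 0.0275, paired). The groups did not overlap for either gene, narrowly so for Mrps22. Mrps12, a decoding centre protein, was at 57.4, 70.3 and 54.9 FPKM with AMD3100, against 73.4, 62.0 and 62.5 FPKM with vehicle, and Mrps15 was at 73.8, 97.8 and 91.8 FPKM with AMD3100, against 90.5, 77.3 and 119.8 FPKM with vehicle. Both overlapped, with sample 2 higher under AMD3100. Mrps2, at 37.1, 35.3 and 29.7 FPKM with AMD3100 against 41.5, 35.8 and 38.7 FPKM with vehicle, was lower in each pair and not called (limma adjusted p = 0.199, paired).

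**Figure D4:**
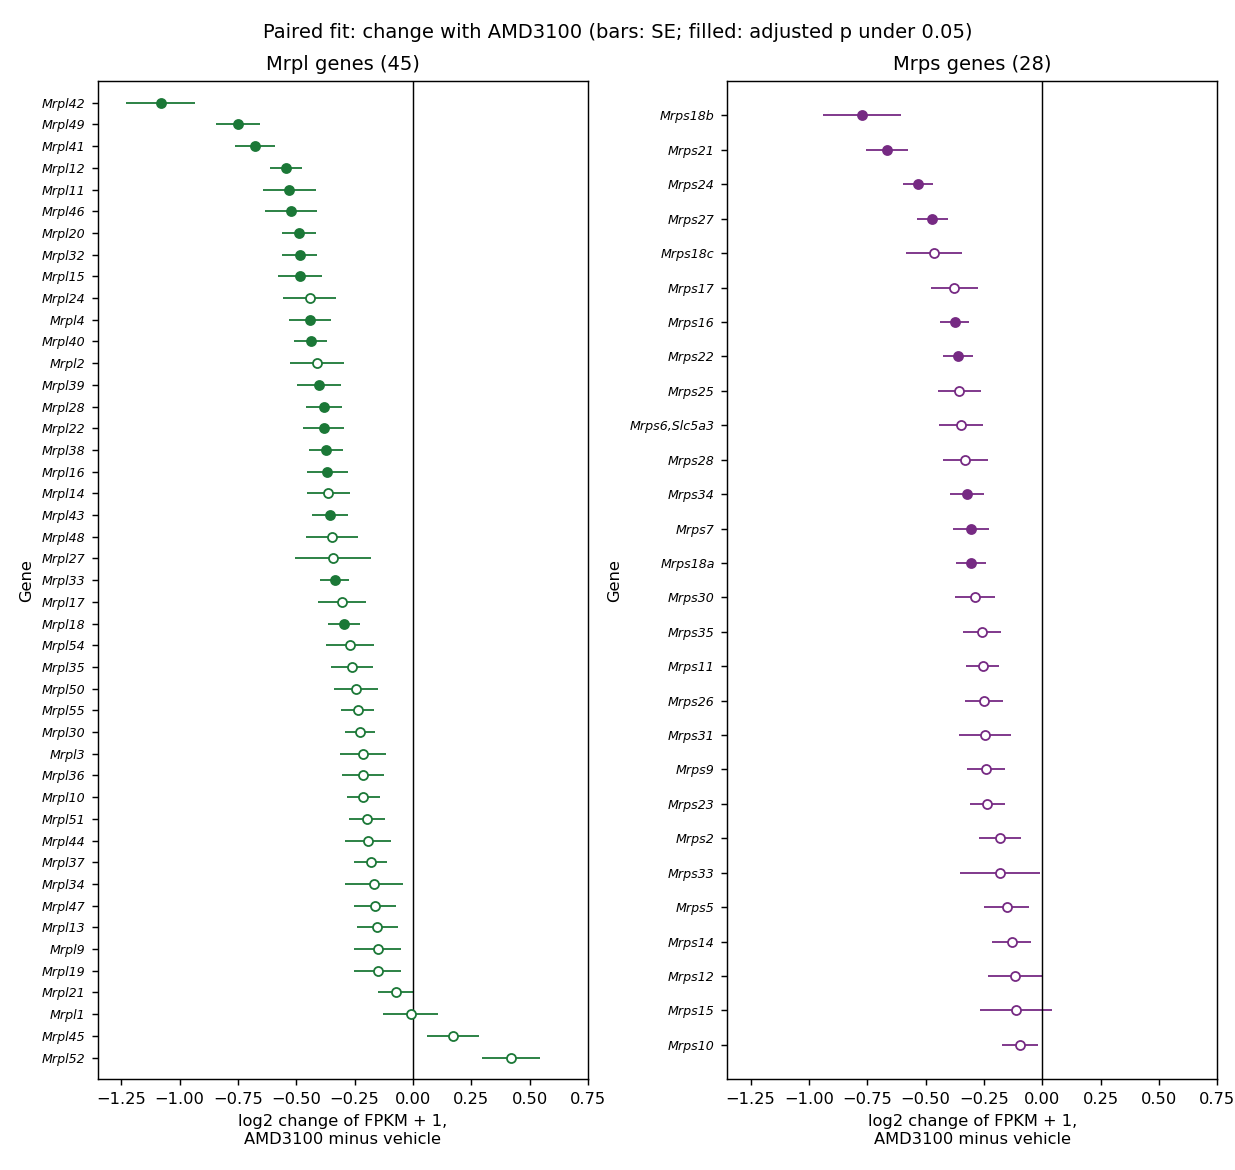
Paired log2 change of FPKM + 1, AMD3100 minus vehicle, with its SE, for the 45 Mrpl (left) and 28 Mrps (right) genes; filled points have a limma adjusted p under 0.05. Mrpl42 (-1.08) and Mrps18b (-0.77) lead the falls, and Mrpl52 (0.42) and Mrpl45 (0.17) are the 2 genes above 0.

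By origin, the paired limma fit called 11 of 29 Mrpl mRNAs with a bacterial counterpart and 8 of 16 specific to mitochondria lower. Their medians were -0.30 and -0.35, and 9.92% of all tested genes were called lower in this fit. Among Mrps mRNAs it called 4 of 16 and 5 of 12, with medians of -0.28 and -0.30. These classes were assigned after the values were seen, and their difference was not tested.

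Transcript length and the level of an abundant non-coding RNA were looked at beside the change. Over 10079 tested genes with a length, the log2 change rose with transcript length (Spearman 0.34 across genes, which are not independent). Across the 72 members with a length this correlation was 0.17. The members are short, with a median of 1368.5 bases against 3047 over all tested genes. With the length trend removed from each library, the paired limma fit called 14 of 72 members lower (8 Mrpl and 6 Mrps) and 0 higher, against 6.59% and 6.82% of tested genes, and the medians were -0.20 for Mrpl and -0.19 for Mrps. Of the 28 calls, 11 were kept. Mrpl42, Mrpl49, Mrpl41, Mrpl12, Mrps21, Mrps24, Mrps27 and Mrps16 were among them. Of the other genes described, Mrpl20, Mrpl33, Mrps18b, Mrps18a and Mrps22 were no longer called (limma adjusted p = 0.0534, 0.125, 0.0764, 0.306 and 0.110). Their corrected changes were unlike, with Mrps18b still at -0.60 and Mrpl20 at -0.29, against -0.19 for Mrpl33, -0.19 for Mrps22 and -0.11 for Mrps18a. The nuclear long non-coding RNA Malat1 was at 527, 580 and 920.5 FPKM with AMD3100, against 178, 214 and 334 FPKM with vehicle. All AMD3100 samples were above all vehicle samples, and the part of RNA composition in the members' change was not tested.

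The 12 T cell markers were all detected and summed to 5186 to 5416 FPKM with AMD3100 and 5584 to 5816 FPKM with vehicle, without overlap; their part in the result was not tested. Summed B cell markers stayed at or under 0.984 FPKM and macrophage markers at or under 2.92 FPKM in every ex vivo sample. Neutrophil markers summed to 0.402, 1.25 and 1.69 FPKM in AMD3100 samples, against 2.80, 12.3 and 0.125 FPKM in vehicle samples. Endothelial markers summed to 44.5, 46.4 and 60.0 FPKM in AMD3100 samples, against 45.5, 50.4 and 58.4 FPKM in vehicle samples. Of the 2 endothelial markers tested, 1 was called lower in the paired fit, and its part was not tested. The 6 platelet markers found summed to 24.7, 38.7 and 25.0 FPKM in AMD3100 samples, against 12.6, 23.2 and 6.86 FPKM in vehicle samples. Every AMD3100 sample was above every vehicle sample, with 5 of the 6 markers under 1 FPKM in each, and the 1 tested marker was called higher in the paired fit; its part in the members' result was not tested. The 12 stromal markers, which OP9 cells would carry, summed to 181, 207 and 27.1 FPKM in AMD3100 samples, against 161, 204 and 15.8 FPKM in vehicle samples. The number 3 samples of both groups were low in them, and the members' median change in that pair was -0.38.

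Other parts of the mitochondrial translation machinery were followed with lists chosen with earlier results known, and are to be read against the 9.92% of tested genes called lower in the paired fit (6.59% with length correction). Of 8 mitoribosome subunits under other symbols, the paired fit called 3 lower and 0 higher, namely Chchd1 (-0.42), Gadd45gip1 (-0.32) and Ict1 (-0.45), the last of which frees stalled ribosomes. Of 20 translation factors and mRNA-binding proteins 2 were lower, Mtif2 (-0.49), the initiation factor, and Slirp (-0.76), which stabilises mitochondrial mRNA. Of 19 tRNA charging enzymes 3 were lower, among them Lars2 (-0.51), and of 27 assembly and rRNA modification factors 1 was, the protease Clpp (-0.39). Of 22 genes of mitochondrial DNA upkeep and transcription, Ssbp1 (-0.98) and Pnpt1 (-0.58) were lower and the poly(A) polymerase Mtpap (0.33) was higher. For translation factors, DNA upkeep and assembly these counts are near or below that share. The medians of these 5 lists ran from -0.26 to -0.13. With length correction the paired fit called 0 of the other subunits, 1 translation factor, 2 tRNA charging enzymes, 0 assembly factors and 4 genes of DNA upkeep lower, and the medians ran from -0.21 to -0.11, on both sides of the -0.20 and -0.19 of Mrpl and Mrps. Without pairing, limma called 0 genes of each list.

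Of 64 oxidative phosphorylation genes, 26 were lower and 1 higher in the paired fit, against 9.92% and 9.96% of tested genes, with a median of -0.35. With length correction 10 were lower and 2 higher, against 6.59% and 6.82%, with a median of -0.18. Uqcrc1, a core subunit of complex III, was at 146, 132 and 133 FPKM with AMD3100, against 209.7, 192 and 213 FPKM with vehicle (limma adjusted p = 0.0197, paired). Of 25 protein import genes 6 were lower and 1 higher, led by the intermembrane space chaperone Timm10 (17.6, 12.8 and 11.7 FPKM with AMD3100, against 29.2, 25.6 and 26.3 FPKM with vehicle). With length correction 5 import genes were lower and 1 higher.

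In the primary tumours, Cxcr4 itself was at 23.2, 78.9 and 21.9 FPKM in KO tumours 5, 7 and 8, against 241, 155 and 206 FPKM in WT tumours 1, 2 and 4. Every KO tumour was below every WT tumour, KO tumour 7 least so, and limma did not call the gene (log2 change -2.49, adjusted p = 0.986). The summed mRNAs of the mitochondrial ribosomal proteins did not separate the genotypes. The Mrpl mRNAs summed to 1345, 1314 and 1761 FPKM in KO tumours, against 1289, 1876 and 1602 FPKM in WT tumours. The Mrps mRNAs summed to 623, 647 and 782 FPKM in KO tumours, against 663, 843 and 774 FPKM in WT tumours. Both sums overlapped, with KO tumour 8 and WT tumour 2 the highest of their groups.

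Limma called 0 of 73 members in either direction in the tumours, where 0.0186% of tested genes were called lower and 0.0186% higher. At an unadjusted p under 0.05 it found 2 lower (Mrpl21 and Mrps9) and 1 higher (Mrps6,Slc5a3), against 2.02% and 2.26% of tested genes. The groups did not overlap for 10 members that were lower and 1 that was higher in KO, against 5.2% and 4.01% of tested genes. The median log2 change, KO minus WT, was -0.15 for Mrpl and -0.17 for Mrps, against -0.03 over all tested genes. The SD of single tumours' median levels within genotypes was 0.24 for Mrpl and 0.20 for Mrps on the log2 scale. Ex vivo this SD was 0.08 and 0.10. Both tumour medians were smaller than it, but the SD of single samples is wider than the spread of a difference between group means. In 50 of 73 members the change was below 0, against 52.3% of tested genes. Single tumours moved the medians: the Mrpl median was -0.37 without WT tumour 1 and 0.01 without WT tumour 2, and the Mrps median was -0.27 without WT tumour 1 and -0.05 without WT tumour 2.

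Mrpl21, a large subunit protein with a bacterial counterpart, was at 2.08, 0.203 and 0 FPKM in KO tumours, against 9.33, 13.6 and 5.47 FPKM in WT tumours. The genotypes did not overlap, but the change of -2.68 (SE 0.59) was not called (limma adjusted p = 0.986). Ex vivo the same gene was at 18.5, 17.0 and 16.8 FPKM with AMD3100, against 19.1, 17.1 and 18.9 FPKM with vehicle, among the smallest changes there. Mrps9 was at 19.6, 23.8 and 11.9 FPKM in KO tumours, against 36.9, 31.8 and 29.5 FPKM in WT tumours, without overlap. The joined row Mrps6,Slc5a3 was at 29.0, 63.2 and 49.9 FPKM in KO tumours, against 25.2, 21.5 and 24.1 FPKM in WT tumours. It was higher in each KO tumour, and its 2 genes cannot be told apart.

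**Figure D5:**
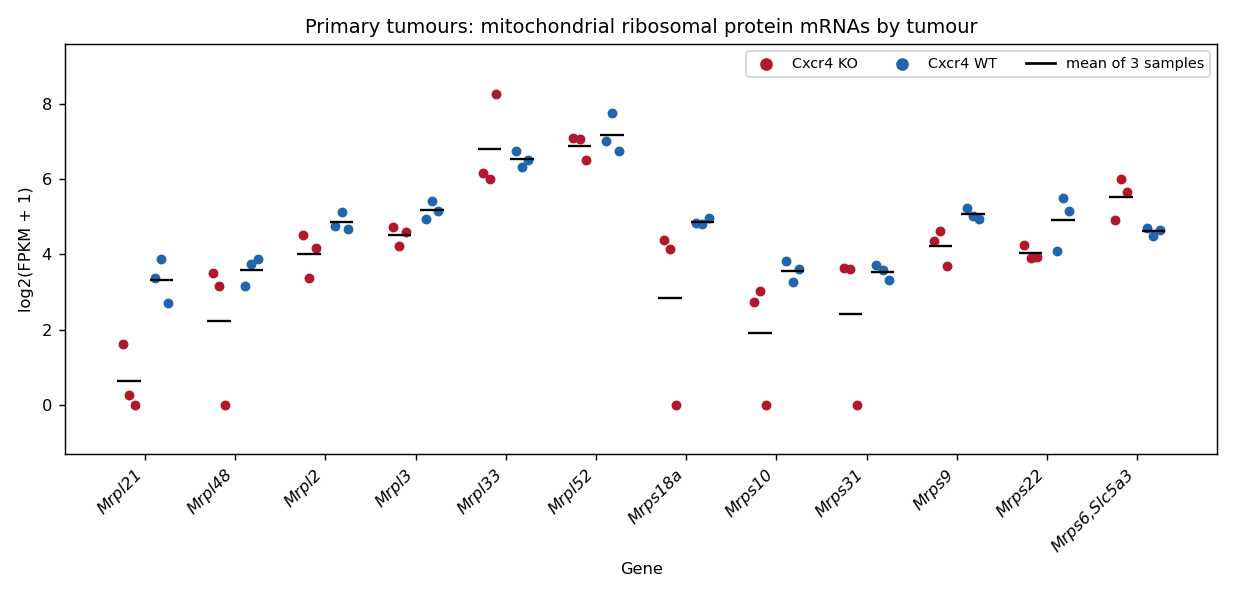
log2(FPKM + 1) of 12 members in each KO (red, left) and WT (blue, right) tumour, with the mean of 3 samples as a black line. Points at 0 belong to KO tumour 8, and for genes such as Mrpl33 and Mrpl52 the genotypes overlap.

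Of the 73 members, 6 were listed at 0 in KO tumour 8 and 0 in each of the other tumours. These were Mrpl21, Mrpl48, Mrps18a, Mrps10, Mrps31 and Mrps33. The share (8.22%) was near that of all tested genes listed at 0 in this library (10.4%, against 0.829% to 3.03% in the other tumours), and the housekeeping gene Gapdh was at 0 or close to it in all libraries, so some zeros may not be true zeros. Mrps18a was at 19.9, 16.7 and 0 FPKM in KO tumours, against 27.4, 26.9 and 30.0 FPKM in WT tumours, and Mrps10 at 5.59, 7.07 and 0 FPKM in KO tumours, against 13.1, 8.69 and 11.3 FPKM in WT tumours. Both stayed lower without KO tumour 8. Mrpl3 was at 25.5, 17.6 and 23.3 FPKM in KO tumours, against 30.0, 41.7 and 34.9 FPKM in WT tumours, and Mrpl2 at 21.8, 9.29 and 17.1 FPKM in KO tumours, against 26.1, 33.6 and 24.5 FPKM in WT tumours; neither overlapped and neither was called.

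Cell makeup varied among the tumours. T cell markers summed to 2233, 4841 and 3739 FPKM in KO tumours, against 6055, 1633 and 2033 FPKM in WT tumours. Of all FPKM, haemoglobin mRNAs made up 20.4%, 2.76% and 6.55% in KO tumours, against 1.29%, 5.48% and 23.0% in WT tumours. WT tumour 2 was highest for neutrophil markers (3293 FPKM, against 5.66 to 348 FPKM in the other 5 tumours). It was also highest for macrophage markers (347 FPKM, against 13.4 to 119 FPKM in the other 5). Its Mrpl mRNAs lay a median 0.32 log2 above the mean of the tumours. WT tumour 4, the lowest for both marker lists (5.66 and 13.4 FPKM), had Mrpl mRNAs a median 0.19 above that mean. The 12 stromal markers summed to 0.977, 1.51 and 6.39 FPKM in KO tumours, against 12.0, 5.44 and 23.4 FPKM in WT tumours. In the ex vivo samples haemoglobin mRNAs made up at most 1.4e-04% of all FPKM. The labels give the OP9 culture for the tumour samples too, and whether these were cultured was not tested. The part of cell makeup in the members' values was not tested.

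In the tumours, 19 of the 28 members called lower ex vivo (67.9%) and 31 of the other 45 (68.9%) had a log2 change below 0. Of all 1002 genes called lower ex vivo and tested in the tumours, 753 (75.1%) did, as did 53.9% of all 9646 genes tested in both tables. The comparisons share no samples. For Mrpl32, Mrps9, Mrps16 and Mrps18a the groups did not overlap in either comparison, with the AMD3100 samples below vehicle and the KO tumours below WT. These are 5.48% of the members, against 1.4% of genes tested in both, and Mrps18a is listed at 0 in KO tumour 8. Of the same 7 lists of mitochondrial genes, limma called 0 members in the tumours.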

How the data were processed

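The deposited values are FPKM, made by the authors, in 2 tables with 6 samples apiece. Per the submitters' processing notes, CASAVA, TopHat and build mm9 were used; the sources used here do not name the program and annotation behind the FPKM. Per the labels' protocols, poly-A RNA gave stranded libraries (dUTP). FPKM do not give read totals, so depth is unknown, and no mm9 coordinates are printed.

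Each table was fitted alone on log2(FPKM + 1) over rows with a mean of 1 FPKM or more, using R 4.3.3 and limma 3.58.1 with a mean-variance trend and two-sided tests, adjusted by Benjamini-Hochberg over all rows kept and called at an adjusted p under 0.05. A fold on this scale understates changes of low genes. The fit without a block is the main one. Same-numbered ex vivo samples deviated together from their group means (correlations 0.467, 0.579 and 0.619, all above 0.1; -0.473 to 0.0455 for other numbers), so the paired fit is given beside it; no label explains the numbers. An exact permutation test of 3 against 3 cannot go below 0.1 and was not used. Transcript lengths are from GENCODE M21, the longest coding transcript, for 98.4% and 98.3% of genes, removed by a loess fit per library. The fit was tested on simulated data.

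Members, lists and settings were chosen with earlier results of these data known. Members were described if among the 3 most abundant, 3 largest rises, 3 largest falls or 3 smallest p of a comparison and subunit, or of a short list of members; not all are printed. Alternatives were other pseudocounts, filters, scalings, thresholds, length correction, left-out samples and pairing.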

Additional observations from a re-analysis of the deposited data

How the results depend on the processing

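Every setting tried kept the median change of both subunits below 0 ex vivo. Without pairing, limma's 0 calls became 4 Mrpl and 2 Mrps with a mean of 5 FPKM or more. They became 1 and 1 with median-of-ratios scaling, and 11 and 4 at an adjusted p under 0.10. In these settings, in that order, 1.57%, 0.634% and 4.91% of all tested genes were called lower, against 0.0781% in the main fit. With the replicate block the counts were 19 Mrpl and 9 Mrps, and 18 and 9 with median-of-ratios scaling, 17 and 8 with TMM scaling, 18 and 8 with quantile normalisation (1 of the 18 higher), and 19 and 9 with a pseudocount of 0.1; in these 5 fits 8.96% to 9.97% of tested genes were called lower. With the block and length correction they were 8 and 6 (6.59% of tested genes). Length correction gave medians of -0.20 for Mrpl and -0.19 for Mrps, with or without the block. Chosen after seeing the data, correction by median coding transcript length gave 10 and 6 calls with the block (8.21% of tested genes) and an Mrpl median of -0.26, and counting Mrps18a and Mrps30 in the large subunit gave 20 and 8. Leaving out samples gave Mrpl medians of -0.34 to -0.25 (-0.33 to -0.28 with the block) and 0 to 3 calls in each subunit with the block. Length correction turned Mrps12 to 0.073 and Mrps15 to 0.074, with or without the block, and left-out samples moved Mrps15 between -0.25 and 0.059 (-0.34 to 0.023 with the block). In the tumours limma called 0 members in every setting tried. No paired analysis was possible because the KO and WT tumours share no replicate numbers. Leaving out a tumour gave ranges that crossed 0 for Mrpl18 (-0.22 to 0.50), Mrpl27 (-0.11 to 1.57), Mrpl33 (-0.45 to 0.69), Mrpl44 (-0.15 to 0.33), Mrpl52 (-0.50 to 0.0066), Mrps12 (-0.51 to 0.088), Mrps18b (-0.26 to 0.75), Mrps18c (-0.55 to 0.0090), Mrps2 (-0.22 to 0.33), Mrps21 (-0.26 to 0.42), Mrps31 (-1.73 to 0.089) and Mrps33 (-0.15 to 1.02). Mrps33 was -0.18 with a pseudocount of 0.1, and rescaling without haemoglobin genes turned Mrpl18 (-0.023), Mrpl44 (-0.026) and Mrps2 (-0.044) below 0. The causes were not tested. Read depth is unknown, and 3 samples a group limit the precision.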

Other observations

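In KO tumour 8, where 6 members were listed at 0, other members were the highest of any tumour. Mrpl33 was at 71.1, 62.8 and 309 FPKM in KO tumours 5, 7 and 8, against 107, 79.1 and 91.1 FPKM in WT tumours. Mrpl54 was at 31.8, 25.0 and 116 FPKM in KO tumours, against 35.6, 39.6 and 45.4 FPKM in WT tumours. Both were chosen after their values were seen.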
